A study of Mus musculus with 6 samples.

Results

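Expression was examined for 10 transcription factor genes that steer mesenchymal cells toward or away from the preadipocyte state: Zfp423, Zfp521, Zfp467, Ebf1, Ebf2, Ebf3, Gata2, Gata3, Nr2f2 and Tcf7l2. They are a list of names drawn up around known roles, with earlier results of these data known, and were found by symbol in the annotation, 10 of the 46603 genes that each count file lists. RNA was sequenced from embryonic fibroblasts (MEFs) of mice, 3 libraries from cells deficient in beta-actin (KO) and 3 from wild-type cells (WT). Both groups are labelled BALB/c, from embryos of 10.5 days, and both had spent 6 days in serum-containing growth medium to which ascorbic acid, insulin, IBMX and dexamethasone had been added, a mix used to induce fat cells. The MEFs of both genotypes had been obtained from another laboratory. No uninduced library was analysed here, so differences that preceded the medium cannot be told apart from those that arose in it. The labels do not say whether the libraries of a genotype came from separate embryos, cell lines or cultures. The p-values therefore measure the spread between these libraries, which may be technical, and a difference between cell isolates cannot be told apart from one of genotype.

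The libraries held 26955708 to 38619711 counts. Actb itself had 53894 to 60582 counts in WT and 276 to 1988 in KO, which fits the labels. KO replicate 1 stood apart from the other KO libraries: the chi-square per gene between raw counts was 173 and 171 for the pairs that contain it, against 26.3 for KO replicates 2 and 3 and 17.2 to 31.9 among WT pairs. The fibroblast genes Col1a1, Vim and Fn1 were abundant in all 6 libraries, with at least 14286 counts each, but WT libraries held only 0 or 1 count of the surface marker Thy1, 2 to 20 of the proteoglycan gene Lum and 6 to 13 of Col1a2. Of 10 fibroblast markers 7 rose in KO, none fell and 3 were not called, while 13.8% of all tested genes were called higher. Without KO replicate 1, 9 markers rose, in a fit that called 42.3% of all tested genes. When any 1 WT library or KO replicate 3 was left out, 6 rose. The summed level of the 10 markers was 2974 to 3738 CPM (counts scaled to a common library size) in WT and 6852 to 9386 in KO. Since these are bulk samples, fewer cells of a type and less RNA per cell cannot be told apart.

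Some of these factors are also active in blood, epithelial and nerve cells, so markers of those cells were read in the same libraries. B lymphocyte markers summed to 0.203 to 0.377 CPM in WT and 0.119 to 0.272 in KO, with Pax5 and Ms4a1 at 0 throughout. Mast and blood progenitor markers summed to 0.189 to 0.691 and 0.0544 to 0.150 CPM, with Cpa3, Mcpt4 and Hbb-bs at 0. T lymphocyte markers summed to 5.94 to 6.73 and 2.29 to 3.20 CPM, nearly all from Lck, the only 1 of 7 that could be tested, which fell. Macrophage markers (19.5 to 37.7 and 21.5 to 31.0 CPM; 1 of 4 tested fell) and endothelial markers (3.36 to 4.69 and 2.15 to 3.68 CPM; 1 of 5 tested fell) lacked Tyrobp and Cldn5. Epithelial and trophoblast markers summed to 5.19 to 10.2 CPM in WT and 30.3 to 50.7 in KO, and went both ways: Krt18 and Krt19 rose, while Epcam had 34, 48 and 45 counts in WT and 0 in each KO library and fell. Neuronal markers summed to 62.5 to 70.0 and 119 to 144 CPM, with Map2 and Syt1 of 3 tested genes higher and Elavl4, Dcx and Neurod1 at 0. The summed levels of the fibroblast, epithelial and neuronal lists (higher in KO) and of the T lymphocyte and mast and blood lists (lower in KO) did not overlap between genotypes. Of single tested genes, 49.6% did not overlap either. The largest parts of the first 3 sums were Fn1 (mean 2109 CPM in WT and 4949 in KO), Krt19 (5.51 and 34.7) and Map2 (53.8 and 112.5). The mast and blood list held only 34 counts in WT and 9 in KO. The part of these cell types in the results was not tested.

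Preadipocytes are mesenchymal cells committed to fat but not yet filled with it. ZFP423, a large zinc-finger protein, marks and promotes that commitment, works with BMP-activated SMAD proteins and raises Pparg, while its close relative ZFP521 opposes it and holds cells back from the fat fate. The EBF proteins bind one shared DNA motif, interact with both zinc-finger proteins, and switch on Pparg and Cebpa. GATA2 and GATA3 keep preadipocytes from maturing, in part by repressing Pparg, and TCF7L2 carries the Wnt signal, a brake on adipogenesis, to its target genes.

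All 10 genes had enough counts to be tested. In KO cells 5 rose (Zfp521, Zfp467, Ebf1, Gata2 and Gata3), 3 fell (Zfp423, Ebf2 and Ebf3), and Nr2f2 and Tcf7l2 were not called, by edgeR's quasi-likelihood test with Benjamini-Hochberg adjustment over all genes at 0.05. Over all 15009 tested genes 13.8% were called higher and 14.5% lower, 28.3% in all. The KO and WT libraries did not overlap in CPM for the 8 called genes, and for 49.6% of all tested genes. The median log2 fold change (KO over WT) of the 10 genes was 0.51, against 0.01 over all tested genes, and their median size without sign was 1.77 against 0.39. The 10 were listed with earlier results of these data known, so these contrasts with all genes are no test of the list. The same 5 higher and 3 lower genes were called without KO replicate 1, a fit in which 42.3% of all tested genes were called, and without WT replicate 2, where 14.9% were. Relatives moved in opposite directions in the Zfp423 and Zfp521 pair and among the EBF genes. Both GATA genes rose.

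**Figure D1:**
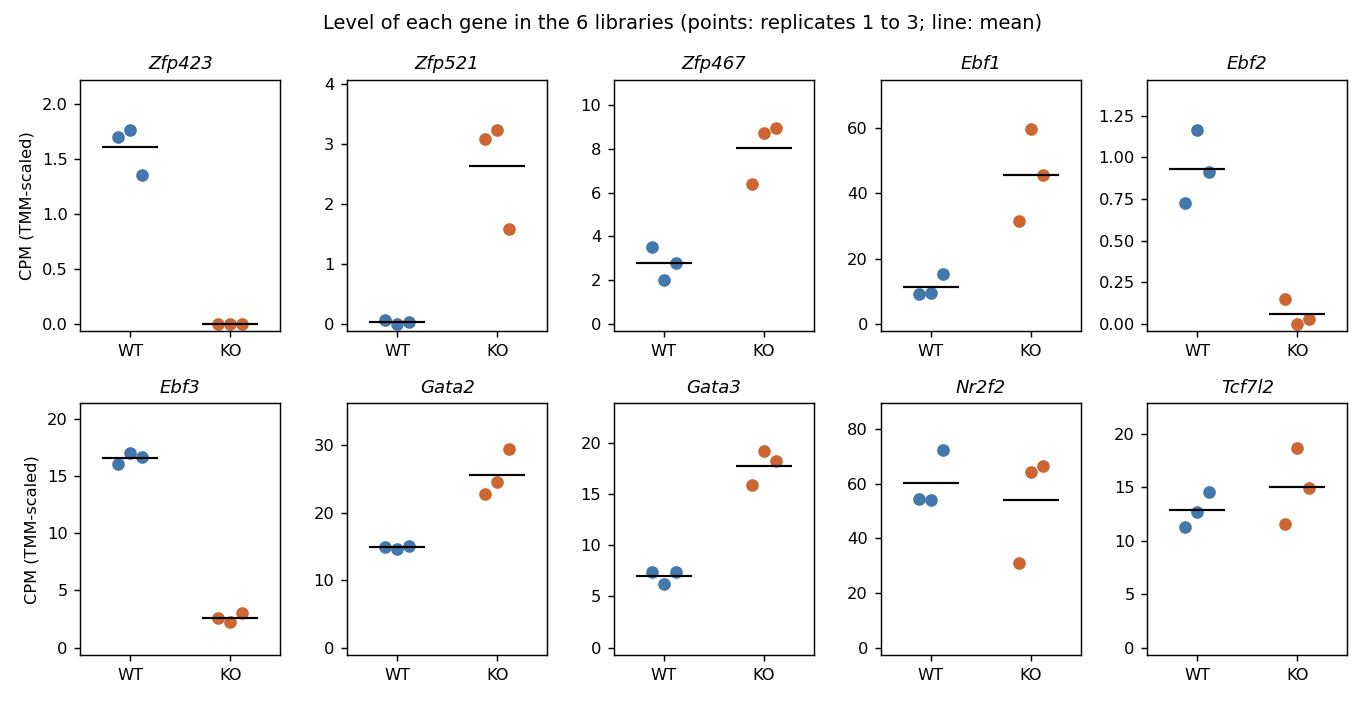
Level of each of the 10 genes in CPM (vertical axis, scaled by the TMM method, a separate scale for each gene) in the 3 WT and 3 KO libraries; points are replicates 1 to 3 from left to right and lines are means. Points of WT and KO are apart for 8 genes and intermixed for Nr2f2 and Tcf7l2, where KO replicate 1 lies lowest of the KO libraries.

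Zfp423 (ENSMUSG00000045333, chromosome 8, 87661810 to 87959595, minus strand, GRCm38) had 54, 56 and 40 counts in WT replicates 1, 2 and 3 and 0 in each KO library. WT held it at a low level, 1.60 ± 0.22 CPM (SD, n = 3), and it was undetected in KO. A floor of 3 counts per library, 0.0816 to 0.113 CPM in KO, makes it at least 16.98-fold lower (edgeR adjusted p = 0.000773). Zfp521 (ENSMUSG00000024420, chromosome 18, 13687013 to 13972787, minus strand) was the mirror image, with 2, 0 and 1 WT counts against 82, 109 and 58 KO counts. Its summed counts, scaled by library size, were 79.7 times higher in KO (exact 95% interval 26.96 to 389, which covers counting error only; edgeR adjusted p = 0.000658). No library thus held more than traces of both relatives. To compare genes, levels were divided by the length of all annotated exons of a gene, merged. Which of its transcripts were expressed was not examined, so levels and shares compared between genes are approximate. On this scale Zfp423 in WT (0.286 ± 0.039) and Zfp521 in KO (0.374 ± 0.130 CPM per kilobase) overlapped in range. Zfp423 made up 97.1% to 100.0% of the pair's level in the WT libraries and Zfp521 all of it in each KO library.

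Related genes can share reads where their sequences are identical. For Zfp423 and Zfp521 the longest exact stretch shared by any of their annotated transcripts was 35 bases, and they shared no window of 50 bases. For Ebf1 to Ebf4 the longest was 27 bases (Ebf3 and Ebf4), and for Gata2 and Gata3 it was 17. The read length is not given in the sources used here.

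Zfp467 (ENSMUSG00000068551, chromosome 6, 48427697 to 48445825, minus strand), a zinc-finger factor that favours fat over bone, also rose. It had 112, 64 and 82 counts across the WT libraries and 170, 294 and 329 across the KO libraries, or 2.77 ± 0.75 and 8.02 ± 1.42 CPM. The lowest KO library, replicate 1, lay above the highest WT library. Its log2 fold change was 1.53 (SE 0.28, edgeR adjusted p = 0.00589). Of the 3 zinc-finger genes it alone was plainly expressed in both genotypes.

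The EBF family changed its makeup. Ebf1 (ENSMUSG00000057098, chromosome 11, 44617317 to 45008091, plus strand), which promotes adipocyte formation and is also known from B cells, had 292, 302 and 456 WT counts against 841, 2015 and 1677 KO counts. It rose from 11.4 ± 3.50 to 45.7 ± 14.1 CPM, a log2 fold change of 2.01 (SE 0.36, edgeR adjusted p = 0.00252). KO replicate 1 was the lowest KO library at 31.6 CPM and still above the highest WT value of 15.4.

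Ebf3 (ENSMUSG00000010476, chromosome 7, 137193673 to 137314445, minus strand) went the other way. It had 510, 542 and 493 WT counts against 68, 76 and 112 KO counts, and fell from 16.6 ± 0.51 to 2.62 ± 0.40 CPM. The libraries of each genotype lay close together and far from the other genotype. The log2 fold change was -2.66 (SE 0.13, edgeR adjusted p = 0.00014), 6.33-fold lower in the ratio of mean CPM.

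Ebf2 (ENSMUSG00000022053, chromosome 14, 67233292 to 67430918, plus strand), a marker of brown and beige preadipocytes, was scarce in WT, with 23, 37 and 27 counts, and all but absent in KO, with 4, 0 and 1. Summed counts were 18.1 times lower in KO (exact 95% interval 7.47 to 57.2; edgeR adjusted p = 0.0059). Most of the KO counts came from replicate 1, without which the ratio was 65.8 (11.5 to 2627), against 11.8 without KO replicate 2 and 14.1 without KO replicate 3. The size of this loss is therefore loosely known; Ebf2 was lower in every KO library than in any WT library.

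Ebf1 provided 32.6% to 44.9% of the summed level per kilobase of Ebf1, Ebf2 and Ebf3 in WT libraries and 91.6% to 96.2% in KO. The mean share moved from 37.1% ± 6.80 to 93.7% ± 2.32 (n = 3 each). Ebf3 went from 58.5% ± 6.23 to 6.08% ± 2.04 and Ebf2 from 4.37% ± 1.08 to 0.23% ± 0.33. The exact two-sided permutation test gave p = 0.1 for the Ebf1 share, the smallest value that 3 against 3 libraries allow. The sum itself was 3.09 ± 0.38 in WT and 4.97 ± 1.42 CPM per kilobase in KO, 0.65 log2 higher (SE 0.27, exact permutation p = 0.1), with the lowest KO library (3.54, replicate 1) barely above the highest WT library (3.51). The p was above its smallest value with library totals (0.45, exact permutation p = 0.3), with upper-quartile scaling (0.59), with the 10 most abundant genes left out (0.65), and without any 1 WT library or KO replicate 2 (0.45 to 0.75), with exact permutation p = 0.2 in each of these but the first. The direction did not hold with all 4 relatives. With the fourth relative, Ebf4, the sum was 7.63 ± 0.45 in WT and 7.12 ± 1.39 in KO (log2 difference -0.12, exact permutation p = 0.5), and the Ebf1 share was 15.1% ± 3.72 and 64.8% ± 9.03. Ebf4 was added after its values were seen.

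**Figure D2:**
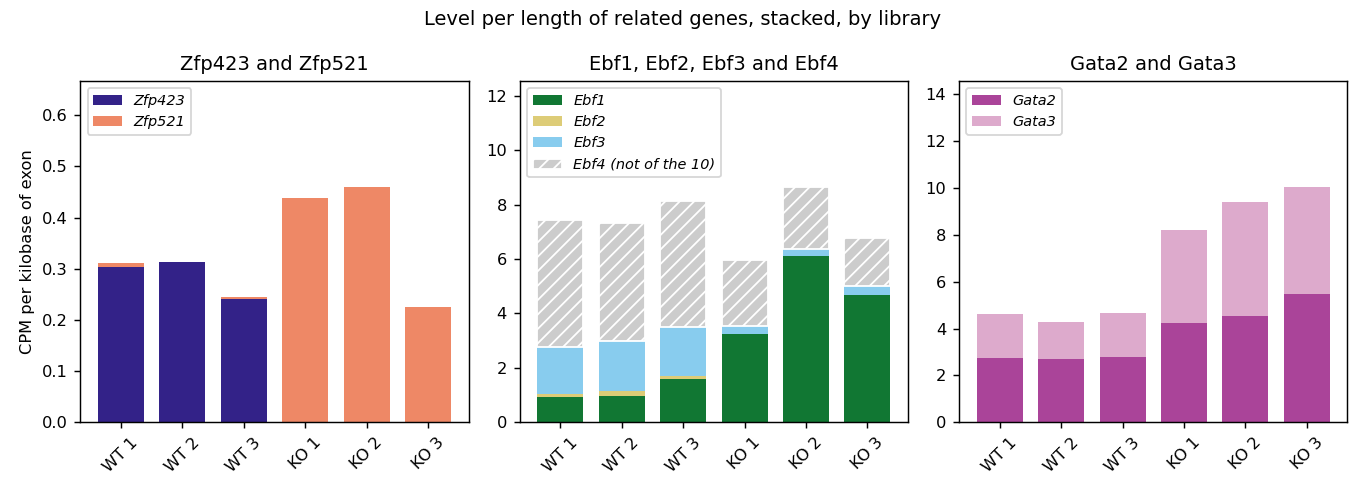
Stacked level per length (vertical axis, CPM per kilobase of merged exons) of Zfp423 and Zfp521 (left), the EBF genes with Ebf4 hatched in grey (middle) and Gata2 and Gata3 (right) in each library. Zfp521 stands in place of Zfp423 in KO, Ebf1 grows from at most 44.9% to at least 91.6% of the 3 coloured EBF genes, and both GATA genes are taller in KO.

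The sequence before the start sites of Zfp423, Ebf1 and Ebf3 is shown because these genes are among the relatives that moved in opposite directions. RefSeq promoter entries (build GRCm38.p6) were read for 8 of the 10 genes, with 12 start sites. None was read for Ebf2 or Zfp521, which does not show that no entry exists for them. In the 250 bases before each start, 4 motifs were searched on both strands: the EBF core (TCCC and GGGA with 2 bases of any kind between them), the GATA forms AGATAA or AGATAG and likewise TGATAA or TGATAG, the TCF/LEF form CTTTGAT, and the CArG box, to which the actin-regulated SRF complex binds. Capitals mark a match, and each stretch below reads 5′ to 3′ on the gene's strand and overlaps no annotated exon. Zfp423 is at chr8:87959596-87959845 (minus), Ebf1 at chr11:44619978-44620227 (plus, the downstream of 2 start sites) and Ebf3 at chr7:137314446-137314695 (minus).
Zfp423: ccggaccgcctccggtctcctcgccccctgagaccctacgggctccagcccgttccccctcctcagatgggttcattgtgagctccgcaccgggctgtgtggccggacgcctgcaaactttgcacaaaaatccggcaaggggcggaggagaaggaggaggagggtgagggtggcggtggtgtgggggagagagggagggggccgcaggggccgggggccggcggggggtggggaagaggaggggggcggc
Ebf1: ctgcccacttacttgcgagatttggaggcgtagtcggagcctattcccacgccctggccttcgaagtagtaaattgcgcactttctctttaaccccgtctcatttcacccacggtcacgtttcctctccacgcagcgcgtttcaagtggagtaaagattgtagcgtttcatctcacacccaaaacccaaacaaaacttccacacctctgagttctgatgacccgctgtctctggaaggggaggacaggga
Ebf3: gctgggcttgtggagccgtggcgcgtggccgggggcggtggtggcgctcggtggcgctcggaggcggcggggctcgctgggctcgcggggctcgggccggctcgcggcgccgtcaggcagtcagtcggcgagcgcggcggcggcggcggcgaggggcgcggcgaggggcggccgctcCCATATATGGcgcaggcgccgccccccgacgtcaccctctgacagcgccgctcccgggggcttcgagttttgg
The Ebf3 stretch holds 1 CArG box, CCATATATGG, whose first base is at position -73, counting the base just before the start as -1. Of all 32851 promoters, 1.47% hold a CArG box in this window, 0.779% the EBF core, 26.5% a GATA form and 3.21% the TCF/LEF form. No motif searched was found in the Zfp423 and Ebf1 stretches, which says only that these letters are not in these windows. Among the other start sites, Nr2f2 held a GATA form and CTTTGAT, overlapping each other, and the downstream start of Tcf7l2 held 2 GATA forms. The 3 stretches differ in base makeup: 80.0% G or C with 43 CpG pairs for Ebf3, 71.6% with 18 for Zfp423 and 52.0% with 14 for Ebf1, against a median of 52.4% and 6 over all promoters. These matches are a description of the letters and no measurement of binding.

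Both GATA genes, brakes on preadipocyte maturation, rose in KO. Gata2 (ENSMUSG00000015053, chromosome 6, 88193891 to 88207032, plus strand) had 474, 467 and 448 WT counts against 607, 830 and 1083 KO counts. Its level was uniform in WT, 14.9 ± 0.23 CPM, and reached 25.6 ± 3.44 in KO, a log2 fold change of 0.78 (SE 0.11, edgeR adjusted p = 0.00691). Gata3 (ENSMUSG00000015619, chromosome 2, 9857078 to 9890034, minus strand) had 234, 199 and 219 WT counts against 422, 648 and 671 KO counts, or 7.001 ± 0.65 and 17.8 ± 1.73 CPM. Its log2 fold change was 1.34 (SE 0.11, edgeR adjusted p = 0.00123). Every KO library was above every WT library for both genes.

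The summed GATA level per kilobase was 4.52 ± 0.20 in WT and 9.21 ± 0.93 in KO, 2.03-fold or 1.02 log2 higher (SE 0.09, exact permutation p = 0.1, the smallest possible). Gata3 made up 36.6% to 40.1% of it in WT and 45.7% to 51.4% in KO. Unlike the zinc-finger pair and the EBF genes, the 2 GATA genes thus moved in one direction.

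Nr2f2 and Tcf7l2 showed no difference beyond the spread between libraries. Nr2f2 (ENSMUSG00000030551, chromosome 7, 70351944 to 70366735, minus strand), an orphan nuclear receptor also called COUP-TFII, had 1736, 1720 and 2145 WT counts against 827, 2171 and 2441 KO counts. Its level was 60.3 ± 10.5 CPM in WT and 53.9 ± 19.8 in KO, where replicate 1 (31.1 CPM) was low and the other KO libraries (64.4 and 66.4) lay within the WT range. The log2 fold change was -0.16 (SE 0.38, edgeR adjusted p = 0.703) and turned to 0.12 without KO replicate 1 (edgeR adjusted p = 0.518). An antisense transcript, B130024G19Rik, shares 643 exon bases with Nr2f2 and had 16 to 27 counts in WT and 46 to 73 in KO, far fewer than Nr2f2. Tcf7l2 (ENSMUSG00000024985, chromosome 19, 55741820 to 55933654, plus strand) had 358, 405 and 431 WT counts against 309, 630 and 550 KO counts, or 12.8 ± 1.65 and 15.1 ± 3.54 CPM. Its log2 fold change was 0.23 (SE 0.22, edgeR adjusted p = 0.442), and 0.39 without KO replicate 1 (0.0757). A test that misses its threshold does not show that the genotypes are equal.

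**Figure D3:**
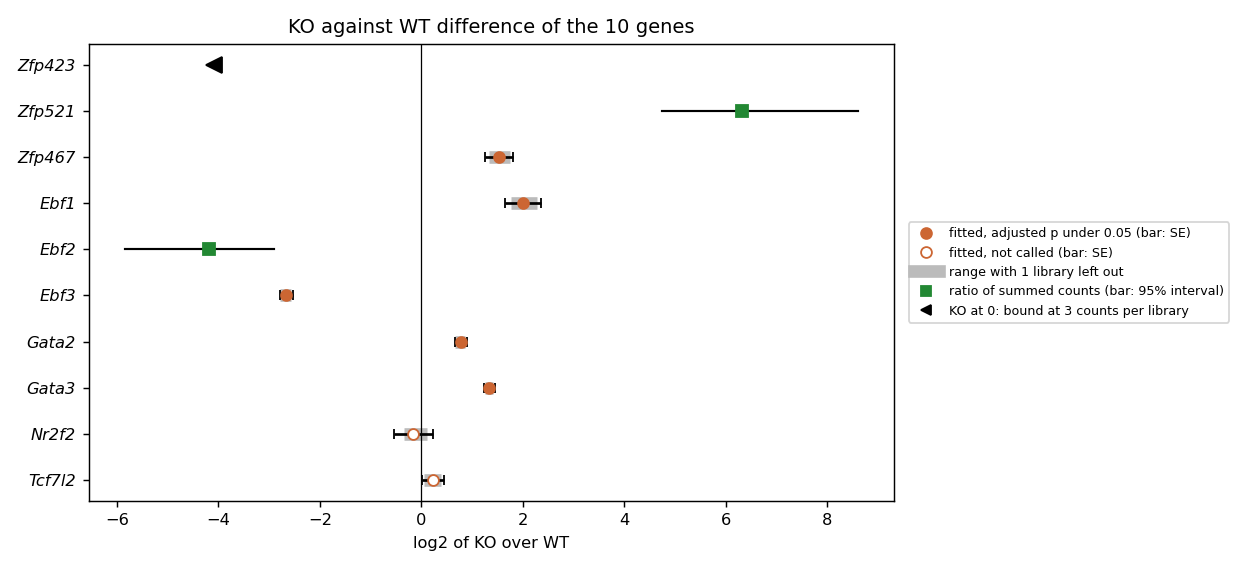
Difference between KO and WT (horizontal axis, log2 of KO over WT) for the 10 genes. Circles are edgeR estimates with SE, filled where called, over a grey band for the range with 1 library left out; squares are ratios of summed counts with 95% intervals for the 2 genes nearly absent from one genotype, and the triangle is the bound for Zfp423 at 3 counts per library. Only the bands or bars of Nr2f2 and Tcf7l2 come near 0.

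The order of the levels per kilobase differed between genotypes. In WT it ran Nr2f2 (6.997), Gata2 (2.76), Ebf3 (1.80), Gata3 (1.76), Tcf7l2 (1.46), Ebf1 (1.16), Zfp467 (0.650), Zfp423 (0.286), Ebf2 (0.135) and Zfp521 (0.0046 CPM per kilobase). Ebf3, Gata3, Tcf7l2 and Ebf1 overlapped, each with its neighbour in that order, while every other neighbouring pair was separate in all 3 libraries. In KO it ran Nr2f2 (6.25), Gata2 (4.75), Ebf1 (4.68), Gata3 (4.47), Zfp467 (1.88), Tcf7l2 (1.72), Zfp521 (0.374), Ebf3 (0.284), Ebf2 (0.0085) and Zfp423 (0). The first 4 were not separated there, nor were Zfp467 from Tcf7l2, Zfp521 from Ebf3 or Ebf2 from Zfp423. Ebf1 stood below Ebf3 in every WT library and above it in every KO library.

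Paralogues outside the 10 genes were read beside them, and 8 of 10 could be tested: Ebf4 fell, none rose and 7 were not called, with a median log2 fold change of -0.12 (2 fell with library totals and 3 without KO replicate 1). Ebf4 had 479, 445 and 443 WT counts against 208, 249 and 208 KO counts, or 14.7 ± 0.59 and 6.95 ± 1.14 CPM, a log2 fold change of -1.08 (SE 0.15, edgeR adjusted p = 0.00464). Of the 4 EBF genes, 3 therefore fell and Ebf1 rose. Gata4 (log2 fold change -0.23, edgeR adjusted p = 0.481) and Gata6 (0.00, edgeR adjusted p = 0.996) were expressed in both genotypes and not called, which does not show equal levels. For Gata4, KO replicate 1 was the highest KO library in CPM, and the other KO libraries lay below every WT library. Gata5 had 0 counts in all libraries.

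Of 25 binding partners and cofactors, which include SMADs, NuRD subunits, the GATA partners Zfpm1 and Zfpm2 and beta-catenin, 2 rose, 2 fell and 21 were not called, with a median of -0.08 (4 rose and 5 fell without KO replicate 1, with a median of 0.05). Ccn5, whose product holds ZFP423 in the cytoplasm, fell by 1.66 log2 (SE 0.36, edgeR adjusted p = 0.00455), from 45.9 ± 6.99 to 14.5 ± 5.10 CPM. Prdm16, the partner of EBF2 in brown fat, had 11, 19 and 11 WT counts against 0, 1 and 0 KO counts, a ratio of 42.7 (exact 95% interval 7.25 to 1727; edgeR adjusted p = 0.00319). Bcl9, a coactivator of beta-catenin, rose by 0.66 log2 (SE 0.12, edgeR adjusted p = 0.0109), but not past the threshold without WT replicate 2 (0.0559) or with library totals as the scaling (0.0518). Beta-catenin itself, Ctnnb1, was not called (log2 fold change 0.17, edgeR adjusted p = 0.333). With library totals 0 partners rose and 3 fell, and without WT replicate 2 there were 0 and 2.

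Wnt and TCF target genes were split. Of 14 that could be tested, of 16 listed, 3 rose, 4 fell and 7 were not called, with a median of -0.37 (4 and 5 without KO replicate 1, 2 and 6 with library totals). The Wnt feedback inhibitor Nkd1 fell by 4.26 log2 (SE 0.33, edgeR adjusted p = 0.000346), from 6.55 ± 2.26 to 0.336 ± 0.096 CPM, and Sp5, a transcription factor induced by Wnt, fell by 4.35 (SE 0.40, edgeR adjusted p = 0.00112). Apcdd1, a membrane inhibitor of Wnt signalling, rose by 0.86 (SE 0.10, edgeR adjusted p = 0.00406). Axin2, the usual reporter of the pathway, was not called (log2 fold change -0.46, edgeR adjusted p = 0.122). The list thus differed by gene while Tcf7l2 and Ctnnb1 transcripts were not called.

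In the BMP and SMAD pathway 2 of 13 tested genes rose, 2 fell and 9 were not called, with a median of 0.05 (3 and 4 without KO replicate 1, and 2 and 4 with library totals or without WT replicate 2; the median was -0.08, -0.16 and 0.01 in these fits). Msx2, a homeobox gene induced by BMP, rose by 3.51 log2 (SE 0.18, edgeR adjusted p = 7.68e-05), from 2.25 ± 0.24 to 25.6 ± 4.71 CPM. Grem1, a secreted BMP antagonist, fell by 2.82 (SE 0.35, edgeR adjusted p = 0.000604), and the ligand gene Bmp2 had 130, 78 and 178 WT counts against 0, 0 and 2 KO counts, both of them in replicate 3, a ratio of 201 (exact 95% interval 55.3 to 1666, for counting error only; edgeR adjusted p = 0.000568). The direct BMP targets Id1, Id2 and Id3 were not called (log2 fold changes -0.62, 0.13 and 0.01).

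Genes further down the adipocyte and osteoblast programs were mixed too. Of 8 tested adipocyte genes 3 rose, 1 fell and 4 were not called, with a median of 0.71, and the 6 osteoblast genes with enough counts split into 2 higher, 2 lower and 2 without a call, with a median of 0.54. Without KO replicate 1 these calls were equal in number and the medians were 0.39 and 0.38. The adipocyte list had 1 higher and 1 lower gene without WT replicate 1, without WT replicate 2 and with a replicate block. The osteoblast list had 1 higher and 2 lower without WT replicate 1, and 1 of each without WT replicate 2. Pparg and Cebpa, both targets of the EBF proteins, parted: Pparg rose by 0.73 log2 (SE 0.18, edgeR adjusted p = 0.0205) and Cebpa fell by 4.20 (SE 0.58, edgeR adjusted p = 0.000813). The Pparg call was lost when WT replicate 1 (0.0813), WT replicate 2 (0.0845) or KO replicate 2 (0.0523) was left out, with library totals (0.0628) and with a replicate block (0.0671). Lpl rose by 5.70 (SE 0.51, edgeR adjusted p = 0.000124), and Lep had 0 counts throughout. Tnfrsf11b, which encodes osteoprotegerin and is a target of EBF2 in bone, fell by 2.85 (SE 0.83, edgeR adjusted p = 0.0171), with the call lost without WT replicate 2 (0.0524) or WT replicate 3 (0.0621). Pth1r, the parathyroid hormone receptor, fell by 2.41 (SE 0.42, edgeR adjusted p = 0.00277), and Spp1, osteopontin, rose by 3.28 (SE 0.47, edgeR adjusted p = 0.00109).

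**Figure D4:**
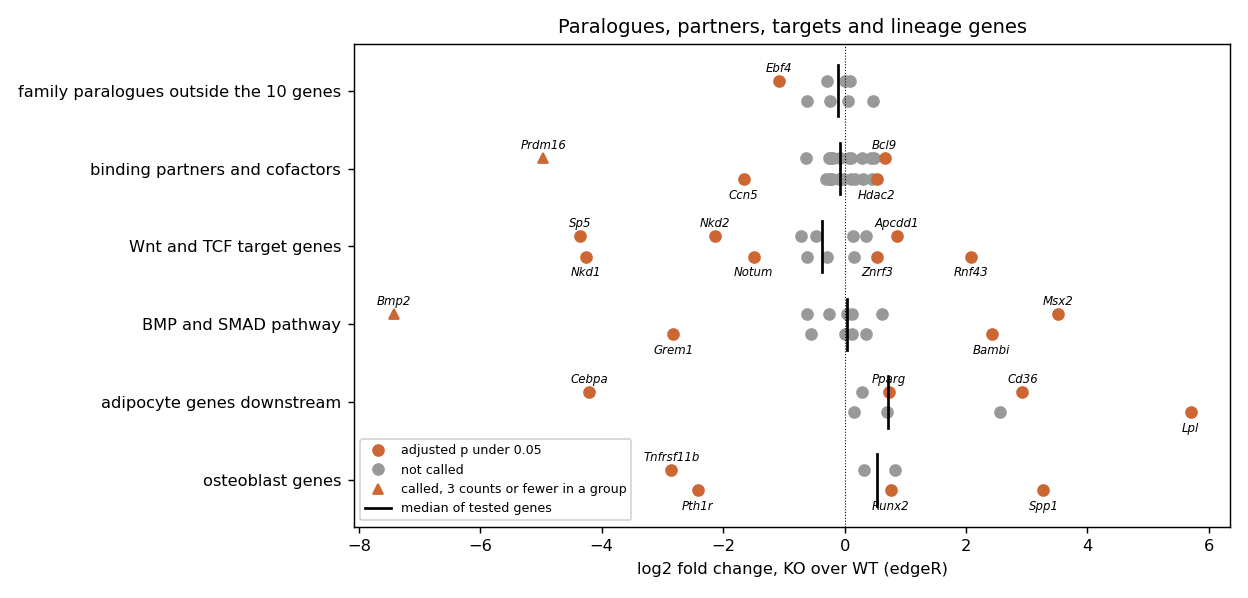
Log2 fold change of KO over WT (horizontal axis, edgeR) of the tested genes in 6 lists of relatives, partners, targets and lineage genes. Points are genes, coloured and named where called, triangles mark called genes with 3 counts or fewer in one genotype, whose fitted value is not a bound, and vertical lines are medians, which lie between -0.37 and 0.71.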

How the data were processed

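Each deposited file holds 1 library as raw counts by Ensembl gene. Per the submitters' processing notes the tools were TopHat2 2.1.0, HTSeq and DESeq2 on GRCm38.p4. Annotation release, strand setting and read filters were not given in the sources used here. The library kit (TruSeq RNA v2) does not keep strand. Symbols, positions and merged exon lengths came from GENCODE M21 (GRCm38), which matched 46091 of 46603 identifiers.

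Counts were filtered with filterByExpr, scaled with TMM and compared between 3 KO and 3 WT libraries with edgeR 4.0.16 (quasi-likelihood F test, two-sided, R 4.3.3), checked first on simulated data. Log2 fold changes are KO over WT. SEs are of the difference in mean log2 CPM with a prior count of 2, and ± is SD. Sums and shares were compared by exact permutation over libraries. Ratios for genes with few counts use summed counts with an exact 95% interval. Settings tried beside these were scaling by RLE, by upper quartile or by library totals, the tools DESeq2 1.42.0 and limma-voom (limma 3.58.1), other filters, the 10 most abundant genes left out, a replicate block and each library left out. The named genes are the 10 members, relatives and neighbours, genes at 0, and from each of the 6 lists of relatives, partners, targets and lineage genes the 3 called genes of lowest p and 1 called oppositely. Ctnnb1, Axin2, Id1 to Id3, Gata4, Gata6, Adipoq, Plin1, Cidec and the cell type markers named were chosen after their values were seen. The members and lists were chosen with earlier results of these data known.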

Additional observations from a re-analysis of the deposited data

How the results depend on the processing

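The 8 called genes kept their call and direction in every alternative in which they were tested, and Ebf2 was too low to be tested where 3 libraries had to reach a CPM of 1, which left 2 lower genes. Without 1 library, 5 genes were higher and 3 lower each time. The log2 fold change of Ebf2 was -5.70 without KO replicate 1, -3.45 without KO replicate 2 and -4.05 with all libraries, and that of Zfp521 was 7.01 without WT replicate 1 against 6.18. Nr2f2 turned from -0.16 to 0.12 without KO replicate 1, with no call in either fit; its values with 1 library left out ran from -0.334 to 0.117. The cause was not tested.

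Library totals lowered the median of all genes to -0.19 and gave 1351 higher and 3347 lower genes against 2074 and 2181, so that 28.8% of calls were higher against 48.7%. With 1 library left out, 1003 to 3075 genes were called higher and 1295 to 3462 lower. The summed EBF level had its log2 difference reversed to -0.12 with Ebf4 included, and it ranged from 0.45 to 0.88 with 1 library left out. The summed GATA level ranged from 0.96 to 1.10 and the Ebf1 share difference from 54.3 to 60.5 percentage points.

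The labels number the libraries 1 to 3 in each genotype without pairing them. Deviations of equally numbered WT and KO libraries from their group means correlated at -0.101, 0.046 and -0.148 across genes, and not every library correlated best with its own number. With the replicate number as a block 1446 genes were higher and 1599 lower, with the same 8 of the 10 genes called. The floor of 3 counts, a chosen bound, was 0.0816 to 0.113 CPM in KO. Zfp423 had 0 counts in each KO library, and levels too low to yield a count could not be seen.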

Other observations

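The genes that flank the 10 factors were read as well, as the nearest tested protein-coding gene on each side. Of 20 such neighbours 8 were called, 2 higher and 6 lower (40.0%, against 28.3% of all tested genes). Among these, Arrdc4 and Mctp2 flank Nr2f2, which was not called. Of the called neighbours beside a called factor, 2 (Mgmt and Celf2) moved in its direction, and the rest (Cnep1r1, Impact, Krba1 and Eefsec) moved against it. Krba1, 7.92 kb from the raised Zfp467, fell by 0.70 log2 (edgeR adjusted p = 0.00779). Impact, beside the raised Zfp521, fell by 0.73 (edgeR adjusted p = 0.0263) and Eefsec, beside the raised Gata2, by 0.46 (edgeR adjusted p = 0.0302). Mgmt, a DNA repair gene 63.4 kb from Ebf3, fell by 1.66 log2 (edgeR adjusted p = 0.00155), from 14.3 ± 2.88 to 4.52 ± 0.47 CPM, as Ebf3 did. Celf2, an RNA-binding protein gene 2348 kb from Gata3, rose by 2.19 log2 (edgeR adjusted p = 0.000354), from 11.4 ± 2.65 to 52.3 ± 6.70 CPM. Beside the lost Zfp423, Cbln1 was not called (log2 fold change -1.64, edgeR adjusted p = 0.174), and Cnep1r1 was 0.52 log2 higher (edgeR adjusted p = 0.0262), a call lost under 8 of 15 alternatives. Neither neighbour of Ebf1 (Rnf145 and Clint1) or Ebf2 (Ppp2r2a and Cdca2) was called. Mctp2, 1711 kb from Nr2f2, fell by 5.54 log2, from 3.07 ± 1.40 to 0.0638 ± 0.0324 CPM (edgeR adjusted p = 0.000824).

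Few counts were assigned to genes that overlap the bodies of the 10. How reads in exon stretches shared by 2 genes were counted is not given in the sources used here, so low counts need not mean scarce transcripts. Gm45278, which shares 355 exon bases with Ebf3 on the opposite strand, was not among the counted genes. Apart from B130024G19Rik at Nr2f2, none of those listed in the files had more than 10 counts in a library, among them the antisense gene Gm12158 within Ebf1 (2 to 7 counts) and 4930412O13Rik, which overlaps the Gata3 body (0 to 10 counts).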
